A study of Homo sapiens with 22 samples.

Results

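The platelet-derived growth factor (PDGF) receptors and ligands were followed across 22 RNA-seq libraries of human renal cancer cell lines. The 7 genes were taken by symbol, from 25343 listed in each library: the receptors PDGFRB and PDGFRA, the receptor-like gene PDGFRL, and the ligands PDGFA, PDGFB, PDGFC and PDGFD. The family was chosen after the differences of PDGFRB between 786-M1A and 786-O, and between iMAE-1.1 or iMAE-1.2 and SC, were known. In those 3 contrasts the values of every member are therefore a description, and so are those of PDGFRB in every comparison. No p-value and no call is read from them.

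The groups were 786-M1A cells under CRISPR interference with the guides iMAE-126 (2 libraries), iMAE-1.2 (4) and iMAE-1.1 (4) or with a non-targeting control, SC (6). The others were the lines without CRISPR interference, OS-LM1 (2), 786-M1A (2) and 786-O (2). CRISPR interference silences a chosen DNA site with a catalytically dead Cas9 fused to a repressor, and 786-M1A is known as a metastatic derivative of 786-O. Every SC and iMAE library carries the 786-M1A background, and all cells were grown in RPMI with 10% fetal bovine serum and taken at 80% confluence. OS-LM1 does not share the first part of its name, 786, with 786-M1A and 786-O. Its comparison with 786-O is therefore read as one between lines, not as a derivative against its parent. Each line stands for itself alone, so line and metastatic capacity cannot be told apart. The labels do not say which libraries came from separate cultures, so p-values measure the spread between these libraries.

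PDGF ligands are secreted dimers that bind receptor tyrosine kinases. PDGF-A and PDGF-C chains act mainly through the alpha receptor, PDGF-D mainly through the beta receptor, and PDGF-B through both. PDGF-A and PDGF-B are cut by furin-like proteases inside the cell, whereas PDGF-C and PDGF-D are secreted latent and activated outside it by plasminogen activators and related proteases. In kidney and its tumors PDGFRB is known mainly as a marker and growth receptor of pericytes and mesangial cells. PDGFRL, a soluble protein resembling part of a receptor, has no kinase domain.

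Library totals lay between 9062605 and 52706490 expected counts. The mean length of the genes read, weighted by counts, split the 16 CRISPRi libraries into 2 library sets. It was 3528 to 3716 bases in set A (both iMAE-126 libraries and SC replicates 1 and 2) and 3264 to 3395 bases in set B (SC replicates 3 to 6 with the iMAE-1.2 and iMAE-1.1 libraries). No label names these sets, and values within a set are given beside the pooled ones. CXCR4 was used as a check of the guides, although the labels do not state the guide target sites. It had 0 to 0.16 TPM in iMAE-126, 0 to 0.12 TPM in iMAE-1.2 and 0.07 to 0.33 TPM in iMAE-1.1, against 0.6 to 1.87 TPM in SC. SC was itself below 786-M1A, which had 3.16 to 3.63 TPM. OS-LM1 had 3.8 to 6.7 TPM and 786-O 0.04 to 0.07 TPM. The defining epithelial and renal markers PAX8 (87.06 to 262.22 TPM over all libraries), KRT8 (494.26 to 839.11 TPM) and KRT18 (234.16 to 460.25 TPM) were read in every library. Of the rest of that list VIM was at 4592.31 TPM or more, PAX2, EPCAM and CDH16 were as low as 2.11, 0.41 and 0.64 TPM, and CA9 averaged 31.1 TPM in OS-LM1 and at most 0.135 TPM in any other group. The mural and fibroblast list summed to 56.9 to 159 TPM over 18 genes. Of its 7 defining markers NOTCH3, DCN and MYH11 reached at most 0.07, 0.13 and 0.42 TPM and KCNJ8, LUM and RGS5 at most 2.7, 3.68 and 5.7 TPM, while ABCC9 had 8.15 to 18.69 TPM. Of the defining endothelial markers CDH5 and VWF reached at most 0.02 and 0.04 TPM and PECAM1 at most 1.43 TPM, in a list of 7 genes that summed to 0.66 to 2.09 TPM. The defining leukocyte marker PTPRC reached at most 0.7 TPM, in a list of 7 genes that summed to 28.4 to 98.5 TPM, mostly from CD68 (17.64 to 94.33 TPM) and LYZ (3.22 to 14.66 TPM).

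The sequences upstream of the 2 receptor kinases are shown because one was read strongly in most libraries and the other was almost never read. They are the 250 bases before the transcript start in RefSeq (GRCh38.p14), written 5′ to 3′ on the gene's strand, with each CCAAT box in capitals; 4 of the 7 members had an entry. The PDGFRB window is chr5:150155846-150156095 on the minus strand, and the windows of the 2 annotated PDGFRA starts are chr4:54229043-54229292 and chr4:54233710-54233959 on the plus strand.
PDGFRB: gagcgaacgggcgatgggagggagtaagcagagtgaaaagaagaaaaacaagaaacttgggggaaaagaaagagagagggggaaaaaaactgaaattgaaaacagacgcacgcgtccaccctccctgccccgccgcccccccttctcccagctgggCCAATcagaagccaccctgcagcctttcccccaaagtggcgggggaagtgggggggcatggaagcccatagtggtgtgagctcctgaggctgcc
PDGFRA start 1: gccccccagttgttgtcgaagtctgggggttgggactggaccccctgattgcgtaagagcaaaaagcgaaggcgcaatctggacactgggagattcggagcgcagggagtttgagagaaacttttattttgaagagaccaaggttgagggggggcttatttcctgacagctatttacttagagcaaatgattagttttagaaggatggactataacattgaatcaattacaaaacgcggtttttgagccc
PDGFRA start 2: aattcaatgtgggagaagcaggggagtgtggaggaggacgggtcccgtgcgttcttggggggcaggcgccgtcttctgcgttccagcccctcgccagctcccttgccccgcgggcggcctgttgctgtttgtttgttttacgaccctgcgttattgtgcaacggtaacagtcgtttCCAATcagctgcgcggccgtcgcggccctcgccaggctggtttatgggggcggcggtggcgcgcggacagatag
The PDGFRB window and that of PDGFRA start 2 both held the longer match CCAATCAG, beginning 94 and 74 bases before the start. Counting both strands, 32% of 35116 RefSeq windows of the same length held the 5-base box and 3.81% the longer match, which contains the box. GGGCGG, the core of the site of the factor SP1, was in 42.6% of all windows, with 1 match in PDGFRB, 2 in PDGFRA start 2 and none in start 1. PDGFRA start 1 held no CCAAT box. It held 1 match to the pattern TGANTCA, which was in 6.57% of all windows and is looser than the AP-1 site. That match, TGAATCA, has A at its center, where the AP-1 site has C or G. ACGTG, one form of the core of the hypoxia response element, was in 18.5% of all windows and in none of these 3. The other form, GCGTG, was not counted over all windows. The PDGFRB window holds it on the opposite strand, as CACGC. The box TATAAA was found in 10.7% of windows and in none of these 3. GC content was 58.4% in PDGFRB, 46.8% in PDGFRA start 1 and 64.0% in start 2, against a median of 58.0%.

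PDGFRB, the beta receptor, ranged over 3 orders of magnitude on the TPM scale, which is per length. It had 71.23 and 72.06 TPM in iMAE-126, 143.31, 149.21, 71.63 and 86.61 TPM in iMAE-1.2, and 80.69, 96.81, 118.05 and 133.35 TPM in iMAE-1.1. The 6 SC libraries had 39.59 TPM at the lowest, a median of 46.3 TPM and 63.68 TPM at the highest. Every iMAE library was above every SC library. The lines without CRISPR interference had 0.09 and 0.16 TPM in OS-LM1, 75.00 and 71.18 TPM in 786-M1A, and 1.18 and 1.30 TPM in 786-O, with no overlap between any pair of lines. In bulk RNA, fewer cells reading a gene and less RNA per cell cannot be told apart. By group mean the order was iMAE-1.2 (113 ± 39.3 TPM, SD, n = 4), iMAE-1.1 (107 ± 23.2, n = 4), 786-M1A (73.1 ± 2.70, n = 2), iMAE-126 (71.6 ± 0.587, n = 2), SC (49.2 ± 9.98, n = 6), 786-O (1.24 ± 0.0849, n = 2) and OS-LM1 (0.125 ± 0.0495, n = 2). The ranges of iMAE-1.2 and iMAE-1.1 overlapped, as did those of 786-M1A and iMAE-126. The mean exceeded that of 95% of the listed genes in iMAE-1.2, 89.6% in 786-M1A and 48.2% in 786-O. The summed mural and fibroblast markers did not follow this order and were lower in every iMAE library than in every SC library, at 81.7 to 90.4 TPM in iMAE-126, 56.9 to 81.3 in iMAE-1.2, 59.6 to 87.4 in iMAE-1.1, 93.6 to 137 in SC, 157 to 159 in OS-LM1, 87.5 to 90.2 in 786-M1A and 104 to 108 TPM in 786-O. Within SC the sum was 93.6 to 96.7 TPM in set A, which holds iMAE-126, and 124 to 137 TPM in set B, which holds the iMAE-1 guides. Among the CRISPRi groups MCAM, which is not a defining marker, made up much of the sum. It averaged 40.2 TPM in iMAE-126, 33.6 TPM in iMAE-1.2 and 34.9 TPM in iMAE-1.1, against 79.3 TPM in SC. By set, SC averaged 49.2 TPM of MCAM in set A and 94.4 TPM in set B. The defining marker ABCC9 averaged 9.96 TPM in iMAE-126, 16.6 TPM in iMAE-1.2 and 17.1 TPM in iMAE-1.1, against 14 TPM in SC. By set, SC averaged 11.7 TPM of ABCC9 in set A and 15.2 TPM in set B. The part of these markers in the PDGFRB differences was not tested.

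**Figure D1:**
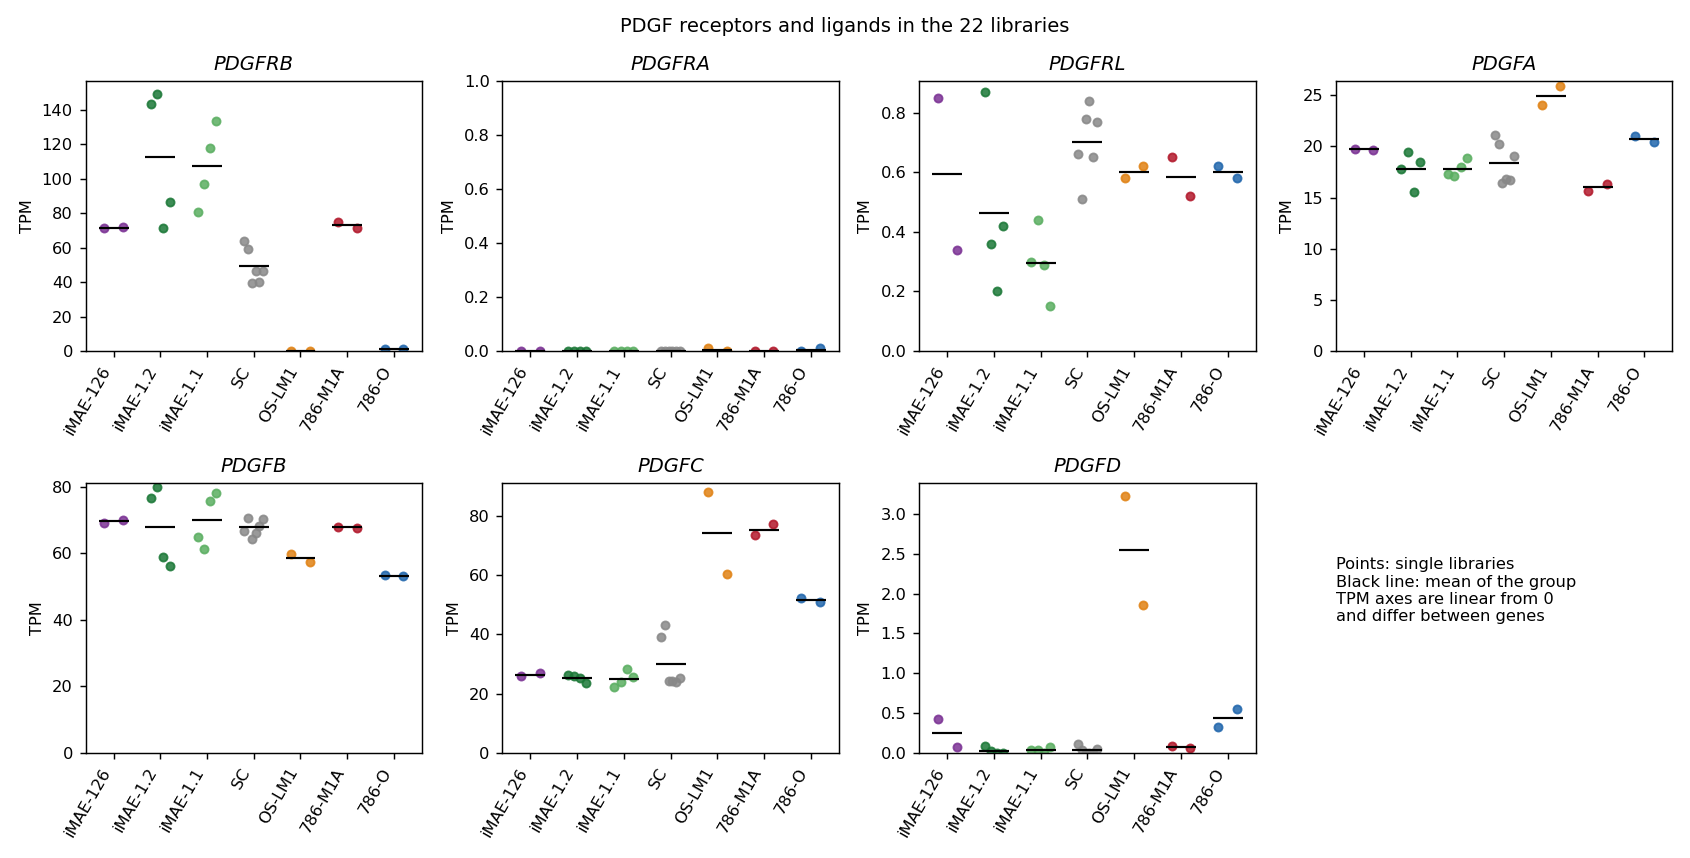
TPM of each of the 7 genes in the 22 libraries, by group; points are libraries, black lines are group means, and the linear axes start at 0 and differ between genes. PDGFRB lies between 39.59 and 149.21 TPM in all 786-M1A-derived libraries and at or below 1.30 TPM in OS-LM1 and 786-O, while PDGFRA lies at 0 to 0.01 TPM throughout.

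In the edgeR fit, the log2 fold change of PDGFRB was 5.95 (SE 0.14) for 786-M1A over 786-O, -3.16 (SE 0.25) for OS-LM1 over 786-O and -9.12 (SE 0.19) for OS-LM1 over 786-M1A. These 3 share libraries with one another. As summed counts scaled to library totals, the ratio was 56.9 for 786-M1A over 786-O (95% counting interval 50.2 to 64.7, from 17875 and 251 counts). In OS-LM1 the receptor rested on 15 counts over both libraries. For iMAE-1.2 over SC the log2 fold change was 1.34 (SE 0.20), and for iMAE-1.1 over the same SC libraries 1.25 (SE 0.20). With the library set as a term these were 1.42 and 1.34. For iMAE-126 over SC it was 0.43 (SE 0.25). Within set A the iMAE-126 libraries had 71.23 and 72.06 TPM, against 63.68 and 59.08 TPM in SC replicates 1 and 2, a log2 fold change of 0.27 (SE 0.38). For SC over 786-M1A it was -0.32 (SE 0.12), or -0.16 with SC replicates 1 and 2 alone and -0.46 with SC replicates 3 to 6 alone.

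The spread of PDGFRB within each iMAE-1 guide was wider than the distance between the guides. The mean of each guide was then subtracted from every gene, over 13617 genes with the PDGF genes left out. The first principal component of those 8 libraries held 44% of this variance within guides and separated 4 libraries from 4. A difference between the guides could not appear in it. Subset 2 (iMAE-1.2 replicates 1 and 2 with iMAE-1.1 replicates 3 and 4) had 118.05 to 149.21 TPM of PDGFRB, and subset 1 (iMAE-1.2 replicates 3 and 4 with iMAE-1.1 replicates 1 and 2) had 71.63 to 96.81 TPM. PDGFB was split the same way, at 75.75 to 79.84 TPM in subset 2 and 56.05 to 65.00 TPM in subset 1. PDGFC had 25.64 to 28.31 TPM in subset 2 and 22.19 to 25.17 TPM in subset 1, and PDGFA overlapped between them. Thus 3 of the 4 members with a mean of at least 1 CPM (a count scaled to the library total) did not overlap and were higher in subset 2; over all 13621 such genes 25.7% did not overlap and 10.5% were higher in subset 2. The subsets were defined from these data, and their part in the differences from SC was not tested. The log2 fold change of PDGFRB over SC was 1.72 for iMAE-1.2 and 1.5 for iMAE-1.1 with subset 2 alone, and 0.81 and 0.95 with subset 1 alone.

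**Figure D2:**
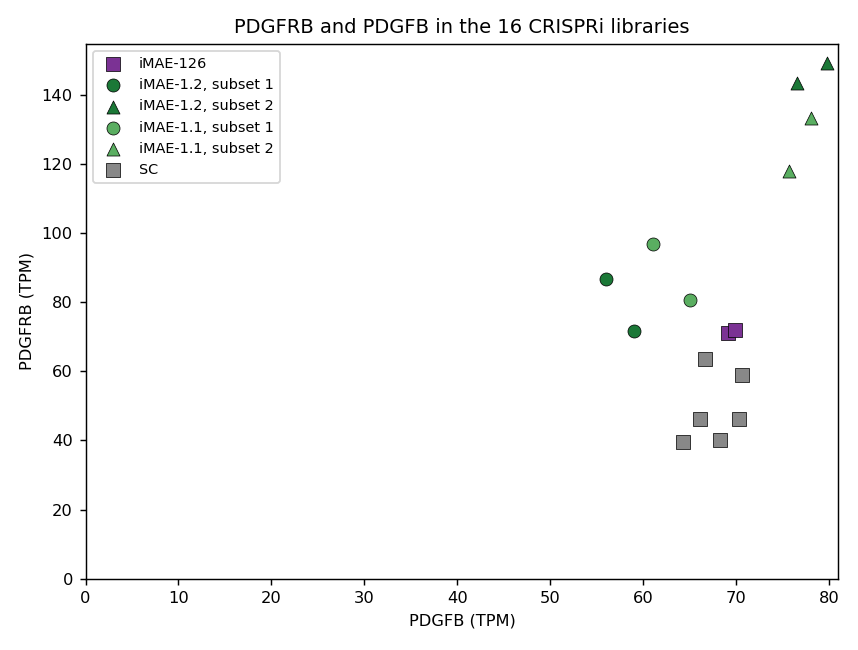
PDGFRB against PDGFB, both in TPM on linear axes from 0, in the 16 CRISPRi libraries; colors are guides and triangles and circles are the 2 subsets of the iMAE-1 libraries. The 4 libraries of subset 2 lie at 118.05 to 149.21 TPM of PDGFRB and 75.75 to 79.84 TPM of PDGFB, above all 12 others on both axes.

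PDGFRA, the alpha receptor, had 2 expected counts in all 22 libraries together, 1 in OS-LM1 replicate 1 and 1 in 786-O replicate 2. It had 0 counts in every other library, which allows up to 0.0534 CPM in iMAE-126, 0.0462 CPM in iMAE-1.2, 0.0464 CPM in iMAE-1.1, 0.0305 CPM in SC and 0.0294 CPM in 786-M1A (3 counts over each group's summed total, counting error only). It passed the count filter in no fit. Its neighbors on chromosome 4 in RefSeq include KIT, a receptor of the same kinase class, which reached a group mean of at most 0.1 TPM, in 786-O. Farther genes beside it were read, such as CHIC2 at 15.7 TPM and SRD5A3 at 10.2 TPM in iMAE-126, against 14.7 and 8.16 TPM in SC. Beside PDGFRB on chromosome 5 lies CSF1R, the colony-stimulating factor receptor, at 0.245 TPM in OS-LM1, 1.03 TPM in 786-M1A and 1.54 TPM in 786-O. On its other side CDX1, SLC6A7 and CAMK2A stayed at or below a group mean of 0.145 TPM. HMGXB3, the gene beyond CSF1R, averaged 34.9 TPM in 786-M1A and 39.2 TPM in 786-O (log2 fold change -0.09). The gene after it, TIGD6, averaged 4.38 TPM in 786-M1A and 4.25 TPM in 786-O.

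PDGFRL was read at a low level in every library, between 0.15 and 0.87 TPM, from 262 counts in all. The iMAE-126 libraries had 0.85 and 0.34 TPM, iMAE-1.2 had 0.87, 0.36, 0.20 and 0.42 TPM, and iMAE-1.1 had 0.30, 0.44, 0.29 and 0.15 TPM, against 0.51 to 0.84 TPM in SC (median 0.715). All iMAE-1.1 libraries were below all SC libraries, and the other groups overlapped with SC. OS-LM1 had 0.58 and 0.62 TPM, 786-M1A 0.65 and 0.52 TPM, and 786-O 0.62 and 0.58 TPM. For OS-LM1 over 786-O its log2 fold change was 0.15 (SE 0.42, edgeR adjusted p = 0.767), from 24 counts in OS-LM1 and 40 in 786-O.

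Of the ligands, PDGFB and PDGFC were the most abundant, and the sum of the 4 ligands differed little beside the receptor. The summed ligand level was 116 ± 0.976 TPM in iMAE-126, 111 ± 14 TPM in iMAE-1.2, 113 ± 11 TPM in iMAE-1.1, 116 ± 11.8 TPM in SC, 160 ± 20.8 TPM in OS-LM1, 159 ± 2.85 TPM in 786-M1A (SD, n as above), and 125 and 127 TPM in the 786-O libraries. The ratio of PDGFRB to this sum was 0.618 in iMAE-126, 1.02 in iMAE-1.2 and 0.95 in iMAE-1.1, against 0.424 in SC. It was 0.000781 in OS-LM1, 0.459 in 786-M1A and 0.00985 in 786-O.

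PDGFB, which binds both receptors, had 69.16 and 69.94 TPM in iMAE-126, 56.05 to 79.84 TPM in iMAE-1.2 and 61.12 to 78.06 TPM in iMAE-1.1, against 64.34 to 70.67 TPM in SC (median 67.5). All of these ranges overlapped with SC. The lines had 59.67 and 57.25 TPM in OS-LM1, 67.90 and 67.55 TPM in 786-M1A, and 53.51 and 53.07 TPM in 786-O, with no overlap. PDGFB was lower in OS-LM1 than in 786-M1A (log2 fold change -0.29, SE 0.094, edgeR adjusted p = 0.0228), a call lost in 5 of 11 alternatives. It missed the threshold in limma (adjusted p = 0.0528), at a minimum count of 50 (edgeR adjusted p = 0.0619) and with the compared groups alone (edgeR adjusted p = 0.0644). It was also lost with either 786-M1A library left out, at -0.284 without the first and -0.335 without the second. OS-LM1 over 786-O gave 0.13 (SE 0.095, edgeR adjusted p = 0.273). For 786-M1A over 786-O the log2 fold change was 0.42 (SE 0.094), and for SC over 786-M1A it was 0.22 (SE 0.10, edgeR adjusted p = 0.0936).

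PDGFA, which acts through the alpha receptor, had 19.75 and 19.70 TPM in iMAE-126, 15.58 to 19.42 TPM in iMAE-1.2 and 17.14 to 18.89 TPM in iMAE-1.1, against 16.39 to 21.12 TPM in SC (median 18.0). Every one of the iMAE-126 and iMAE-1.1 libraries lay inside the SC range. OS-LM1 had 24.05 and 25.88 TPM, 786-M1A had 15.69 and 16.33 TPM, and 786-O had 21.00 and 20.40 TPM. PDGFA was thus highest in OS-LM1. The difference was 0.73 over 786-M1A (log2, SE 0.10, edgeR adjusted p = 0.000338) and 0.43 over 786-O (SE 0.10, edgeR adjusted p = 0.00633). The difference from 786-O missed the threshold when the second 786-O library was left out (adjusted p = 0.0745). PDGFA was higher in SC than in 786-M1A (log2 fold change 0.46, SE 0.097, edgeR adjusted p = 0.0055). It missed the threshold with either 786-M1A library left out (edgeR adjusted p = 0.0637 without the first and 0.0588 without the second) and in limma on the log2(TPM + 1) scale (0.18, adjusted p = 0.25).

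PDGFC, the latent ligand of the alpha receptor, had the widest log2 fold change of the 3 ligands tested between SC and 786-M1A. The iMAE-126 libraries had 25.92 and 26.93 TPM, iMAE-1.2 had 23.43 to 26.11 TPM and iMAE-1.1 had 22.19 to 28.31 TPM. SC replicates 1 and 2 had 39.03 and 43.05 TPM, and SC replicates 3 to 6 had 24.35, 24.20, 23.94 and 25.25 TPM. OS-LM1 had 87.90 and 60.43 TPM, 786-M1A 73.39 and 77.16 TPM, and 786-O 52.15 and 50.78 TPM. The 2 OS-LM1 libraries lay on either side of 786-M1A, and both were above 786-O.

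PDGFC fell in SC relative to 786-M1A (log2 fold change -1.09, SE 0.16, edgeR adjusted p = 0.00202), by 0.79 with SC replicates 1 and 2 alone and by 1.32 with SC replicates 3 to 6 alone. The 2 groups also differ in the CRISPR interference constructs and in library properties, and these cannot be told apart. PDGFC was higher in OS-LM1 than in 786-O (0.69, SE 0.16, edgeR adjusted p = 0.00600), which missed the threshold with the second 786-O library left out (adjusted p = 0.0548). For OS-LM1 over 786-M1A it was 0.07 (SE 0.16, edgeR adjusted p = 0.732), and its sign depended on which OS-LM1 library was left out: it was -0.24 (adjusted p = 0.00876) without replicate 1 and 0.30 (adjusted p = 0.000509) without replicate 2.

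For iMAE-126 over SC the log2 fold change of PDGFC was -0.28 (SE 0.15, edgeR adjusted p = 0.214). With the library set as a term it was -0.58 (SE 0.11, edgeR adjusted p = 0.00180), and within set A alone -0.58 (SE 0.12, edgeR adjusted p = 0.00997), with both iMAE-126 libraries below both SC libraries of that set. Against SC replicates 3 to 6 alone it was -0.10 (adjusted p = 0.42). The difference between the effect of iMAE-126 and the mean effect of the iMAE-1 guides, with the library set as a term, was -0.65 for PDGFC (SE 0.13, edgeR adjusted p = 0.00347). Without the set term it was -0.16 (adjusted p = 0.399). The set term rests on the SC libraries alone, which are the only group read in both sets.

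PDGFD, the latent ligand of the beta receptor, was lowly read outside OS-LM1. OS-LM1 had 3.23 and 1.86 TPM, 786-M1A 0.09 and 0.06 TPM, and 786-O 0.32 and 0.55 TPM, with no overlap between lines. The log2 fold change was 2.71 for OS-LM1 over 786-O (SE 0.38, edgeR adjusted p = 0.00043) and 5.13 for OS-LM1 over 786-M1A (SE 0.47, edgeR adjusted p = 3.46e-05). As summed counts scaled to library totals, the ratio was 7.27 (95% counting interval 5.47 to 9.79) for OS-LM1 over 786-O and 0.168 (0.0845 to 0.308) for 786-M1A over 786-O. PDGFD was thus higher where PDGFRB was lower among the 3 lines. In the CRISPRi libraries it had 23 counts in iMAE-126, 3 in iMAE-1.2, 6 in iMAE-1.1 and 8 in SC, and it did not pass the filter of that fit. Of the 23 counts 18 came from iMAE-126 replicate 1.

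**Figure D3:**
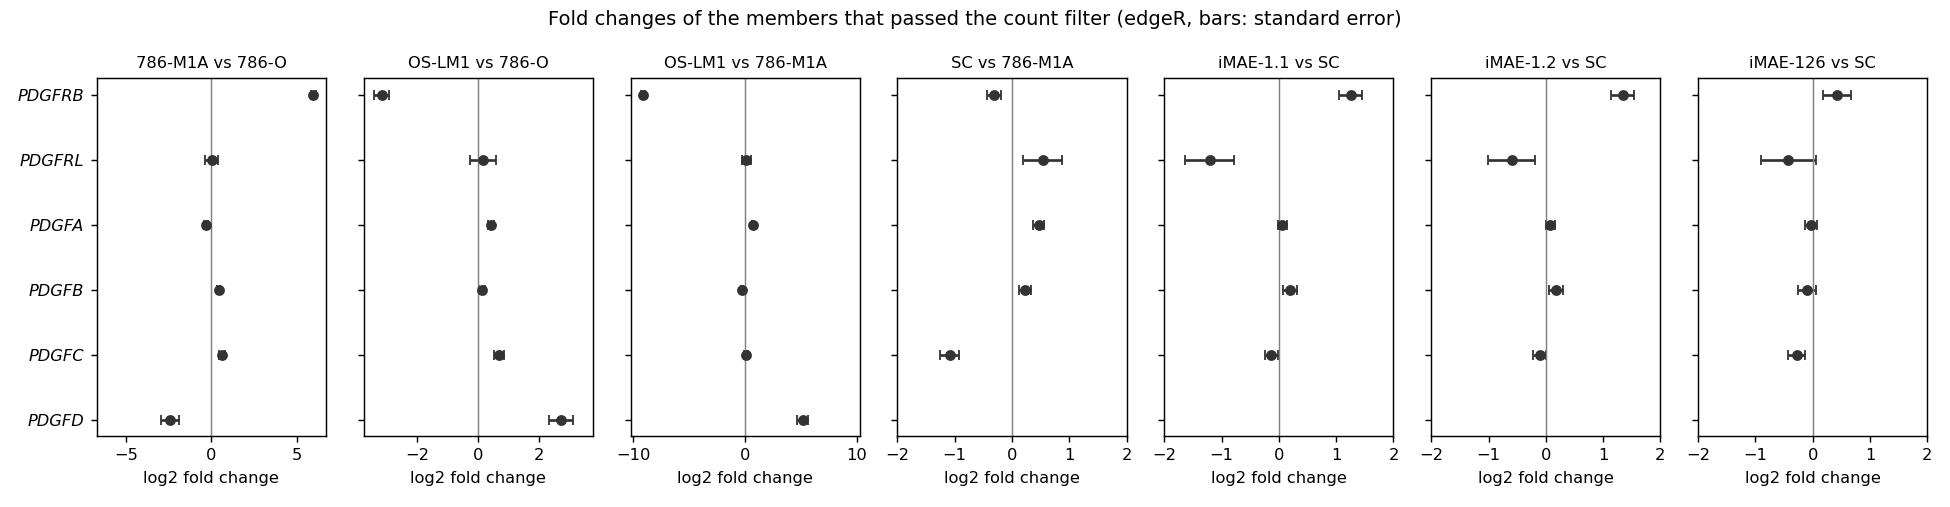
Log2 fold changes with standard errors from edgeR for the members that passed the count filter, 1 panel for each comparison with its own symmetric axis. PDGFRB lies at 5.95 for 786-M1A over 786-O and at -9.12 for OS-LM1 over 786-M1A; PDGFD is drawn only in the 3 comparisons of lines, where it passed the filter.

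Counted together, 6 of the 7 members passed the count filter in the fit of the 3 lines and 5 in the fits with CRISPRi libraries. PDGFRB is left out of the counts that follow. For OS-LM1 over 786-O, PDGFA, PDGFC and PDGFD were called, all higher, where 63.6% of 16354 genes were called; without 786-O replicate 2 PDGFD alone was. For OS-LM1 over 786-M1A, PDGFA and PDGFD were called higher and PDGFB lower, where 68.7% were. For SC over 786-M1A, PDGFA and PDGFC were called, where 53% of 14769 genes were, and PDGFC alone when either of the 786-M1A libraries was left out. With SC replicates 1 and 2 alone the same 2 were called (51.2% of genes), and with SC replicates 3 to 6 alone PDGFB as well (79.1%). For iMAE-126 over SC none was called by edgeR, DESeq2 or limma, where edgeR called 15.5% of 15254 genes. None had an unadjusted p under 0.05 in edgeR, against 31.6% of all genes. With the set term 1 was called, PDGFC, where 16.7% were. PDGFC was also the 1 called against SC replicates 1 and 2 alone (11.4% of genes), and none was against SC replicates 3 to 6 alone (45% of genes). In the difference of guide effects 1 was called, PDGFC, where 11.9% were. For iMAE-1.2 over iMAE-1.1 no member was called by any of the 3 tools and none had an unadjusted p under 0.05; over all genes edgeR and limma called 0 (0%), DESeq2 2, and 116 (0.76%) had an unadjusted p under 0.05 in edgeR. In the contrasts that chose the family the members are left out of this count, and their number appears below as a description only. Over all genes edgeR called 31% in 786-M1A over 786-O, 0.721% in iMAE-1.2 over SC and 0.452% in iMAE-1.1 over SC. Against SC replicates 1 and 2 alone it called 44.9% for iMAE-1.2 and 44.1% for iMAE-1.1.

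The lists of pathway genes were chosen with earlier results of these data known. In the contrasts that chose the family their counts are a description only. They follow, beginning with the proteases and binding partners of the ligands. As the background for these and the next lists, 14.7% of all genes passed the edgeR threshold upward and 16.3% downward in 786-M1A over 786-O, 30.4% and 33.3% in OS-LM1 over 786-O, and 34.4% and 34.3% in OS-LM1 over 786-M1A. In SC over 786-M1A the shares were 27.8% upward and 25.3% downward, 24.1% and 27.2% there with SC replicates 1 and 2 alone, and 39.7% and 39.4% with SC replicates 3 to 6 alone. In iMAE-126 over SC these shares were 6.21% and 9.24%, and with the set term 6.31% and 10.4%. Of 10 tested genes of the list on ligand processing and binding, 5 were called higher and 2 lower in 786-M1A than in 786-O, 4 higher and 1 lower in OS-LM1 than in 786-O, and 5 higher and 3 lower in OS-LM1 than in 786-M1A. The list medians were 0.33, 0.07 and 0.34, against -0.02, -0.02 and 0.04 over all genes tested. PLAT, the tissue plasminogen activator and an activator of PDGF-C, had 14.13 and 15.51 TPM in OS-LM1, 0.45 and 0.49 TPM in 786-M1A and 0.13 and 0.26 TPM in 786-O. Its log2 fold change was 6.43 for OS-LM1 over 786-O (SE 0.26, edgeR adjusted p = 6.45e-07). PCSK5, a furin-like protease, had 33.37 and 49.82 TPM in OS-LM1, 2.18 and 2.28 TPM in 786-M1A and 53.85 and 55.80 TPM in 786-O. It was higher in OS-LM1 than in 786-M1A (4.27, SE 0.20, edgeR adjusted p = 1.06e-06). NRP1, a co-receptor, was lower in OS-LM1 than in 786-O (-0.69, SE 0.16, edgeR adjusted p = 0.00562) and stood at -1.01 (SE 0.16) for 786-M1A over 786-O. In SC over 786-M1A, PCSK5 rose (2.73, SE 0.23, edgeR adjusted p = 0.000573) and FURIN fell (-1.12, SE 0.16, edgeR adjusted p = 0.00186), among 2 higher and 2 lower of 9 tested. With SC replicates 1 and 2 alone 2 were higher and 3 lower of 10 tested. With SC replicates 3 to 6 alone 3 were higher and 6 lower of 9 tested.

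Of 23 receptor adaptors and effectors, 2 were called higher and 4 lower in 786-M1A than in 786-O, and 5 higher and 12 lower in OS-LM1 than in 786-O. The list medians were 0.02 and -0.42. In OS-LM1 over 786-M1A 6 were called higher and 14 lower (median -0.49). In SC over 786-M1A 1 was higher and 12 were lower (median -0.44, against 0.07 over all genes). With SC replicates 1 and 2 alone 2 were higher and 13 lower, and with SC replicates 3 to 6 alone 2 higher and 16 lower. The Src-family kinase FYN had 6.89 and 8.37 TPM in OS-LM1, 1.11 and 1.17 TPM in 786-M1A and 5.14 and 5.16 TPM in 786-O, and it rose in SC over 786-M1A (1.71, SE 0.20, edgeR adjusted p = 0.000978). The docking protein GAB1 was lower in OS-LM1 than in 786-O (-2.17, SE 0.21, edgeR adjusted p = 5.22e-05) and stood at -2.08 (SE 0.19) for 786-M1A over 786-O. STAT5A rose in OS-LM1 over 786-O (5.15, SE 0.35, edgeR adjusted p = 9.61e-06), but its reads can be shared with its near copy STAT5B, so the split between them is uncertain.

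Of 10 receptor attenuators, which remove phosphate from the receptor or mark it for degradation, 2 were called higher and none lower in 786-M1A than in 786-O. In OS-LM1 1 was called higher and 3 lower against 786-O, and 1 higher and 6 lower against 786-M1A. The list medians were -0.049, -0.212 and -0.35. The ubiquitin ligase CBLB was lower in OS-LM1 than in 786-O (-1.66, SE 0.21, edgeR adjusted p = 0.000231). CBL, its relative, was lower in OS-LM1 than in 786-M1A (-0.92, SE 0.18, edgeR adjusted p = 0.00201) and in SC than in 786-M1A (-1.15, SE 0.27, edgeR adjusted p = 0.00878). In SC over 786-M1A none was higher and 3 were lower (median -0.132). With SC replicates 1 and 2 alone 1 was higher and 4 were lower. With SC replicates 3 to 6 alone 3 were higher and 6 lower.

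Of 13 genes known to be induced by PDGF in fibroblasts, 9 were called higher and 1 lower in 786-M1A than in 786-O, and likewise 9 higher and 1 lower in OS-LM1 than in 786-O, the line with the lowest PDGFRB. The medians were 0.76 and 1.2, against -0.02 over all genes in both. Both comparisons share the 786-O libraries, and PDGF signaling was not tested. CXCL1, a neutrophil chemokine, had 1258.07 and 1415.86 TPM in OS-LM1, 6.88 and 7.26 TPM in 786-M1A and 1.08 and 1.52 TPM in 786-O. It rose by 10.1 on the log2 scale in OS-LM1 over 786-O (SE 0.20, edgeR adjusted p = 5.04e-08), with the caution that near copies such as CXCL2 can share its reads. EGR1, an immediate early factor, had 11.85 and 13.67 TPM in OS-LM1, 1.86 and 1.92 TPM in 786-M1A and 5.09 and 5.26 TPM in 786-O, and so was the 1 gene lower in 786-M1A than in 786-O (-1.38, SE 0.14).

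In SC over 786-M1A 8 of these 13 were called higher and none lower (median 0.88). CCL2, a monocyte chemokine, rose by 3 on the log2 scale (SE 0.87, edgeR adjusted p = 0.0189) over all SC libraries and by 0.90 with SC replicates 1 and 2 alone (SE 0.16, edgeR adjusted p = 0.000817). With SC replicates 1 and 2 alone 5 were higher and 1 lower, and with SC replicates 3 to 6 alone 11 were higher and none lower. For iMAE-1.2 over SC edgeR called none of the 13, with 2 at an unadjusted p under 0.05 (15.4%, against 20.5% of all genes). For iMAE-1.1 it called none, with 3 (23.1%, against 18.0%). With the library set as a term 1 was called lower for iMAE-1.2 and none for iMAE-1.1, as a description only. The iMAE-126 libraries had 7 called lower than SC and none higher. With the library set as a term 2 were lower, CXCL1 (-0.97, SE 0.23, edgeR adjusted p = 0.00802) and the signaling inhibitor SPRY2 (-0.81, SE 0.19, edgeR adjusted p = 0.00716). Of the other lists, ligand processing had 2 higher and 2 lower of 9 in iMAE-126 over SC, and the adaptors 3 and 1 of 23. The attenuators had none higher and 2 lower of 10, and the related receptors and ligands 1 and none of 8. In these lists the set term left none higher. Lower were then 2, 5, 1 and 1, in the same order.

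**Figure D4:**
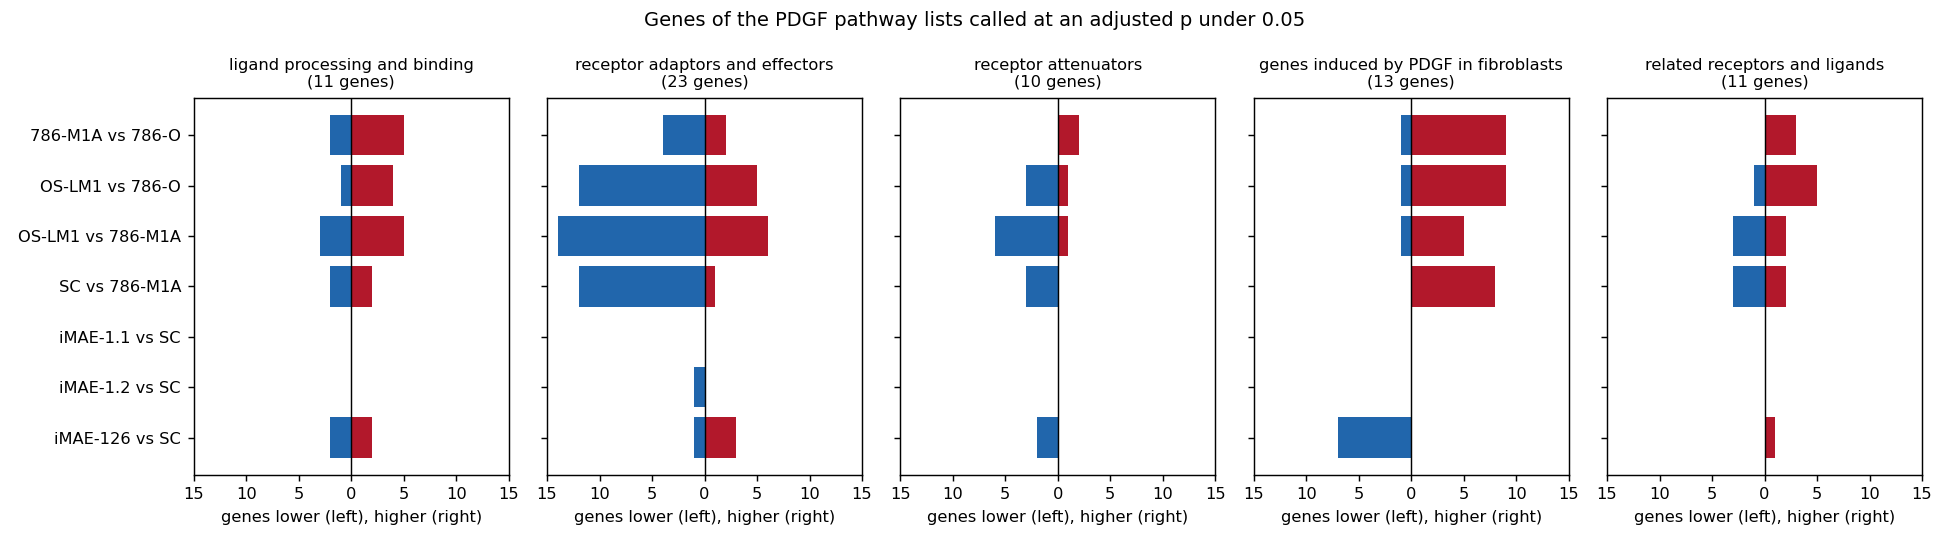
Number of genes called lower (left, blue) and higher (right, red) at an edgeR adjusted p under 0.05 in each of the 5 PDGF pathway lists, for 7 comparisons. Calls are many between lines, such as 9 higher and 1 lower of 13 PDGF-induced genes in 786-M1A over 786-O, and 0 or 1 in each list for either iMAE-1 guide over SC.

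Among related receptors and ligands, KIT and FLT3, the other kinases of the class along with CSF1R, were at or near 0 in every group, FLT3 at 0 TPM in all. Of 8 tested genes of that list, 3 were called higher and none lower in 786-M1A than in 786-O. In OS-LM1 5 were higher and 1 lower than in 786-O. Against 786-M1A 2 were higher and 3 lower, both in OS-LM1 and in SC. With SC replicates 1 and 2 alone 3 were higher and 3 lower, and with SC replicates 3 to 6 alone 2 higher and 4 lower. VEGFA, the vascular growth factor, had 360.26 and 465.50 TPM in OS-LM1, 333.04 and 340.32 TPM in 786-M1A and 124.55 and 144.71 TPM in 786-O. It rose in OS-LM1 over 786-O (1.63, SE 0.14, edgeR adjusted p = 2.79e-05) and fell in SC over 786-M1A (-1.1, SE 0.17, edgeR adjusted p = 0.00222). PGF, placental growth factor, had 2.65 and 3.02 TPM in OS-LM1, 15.06 and 15.75 TPM in 786-M1A and 1.14 and 1.91 TPM in 786-O, and so was highest in 786-M1A among the 3 lines, as PDGFRB was. In SC it was between 0.26 and 2.42 TPM, lower than in 786-M1A (-3.65, SE 0.59, edgeR adjusted p = 0.00252), although SC kept PDGFRB at 39.59 to 63.68 TPM.

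The genes whose levels followed PDGFRB most closely over all 22 libraries, by Pearson's r of log2(CPM + 1) among 13834 genes, were EFCAB4A (0.982), FLG (0.967), RGS20 (0.96), CTSZ (0.954) and PLEC (0.954). These values mostly set the 786-M1A-derived libraries against OS-LM1 and 786-O, so the points are not independent. EFCAB4A averaged 2.27 TPM in OS-LM1, 21.9 TPM in 786-M1A and 4.71 TPM in 786-O. Over the 16 CRISPRi libraries alone they were VPS9D1-AS1 (0.937), ADM (0.934), LIMCH1 (0.931), TRPM2 (0.918) and MARK3 (0.915), which share guides and subsets. ADM, the vasodilator peptide adrenomedullin, averaged 95.6 TPM in iMAE-126, 92.5 TPM in iMAE-1.2 and 95.7 TPM in iMAE-1.1, against 68.1 TPM in SC. VPS9D1-AS1 is antisense, and no source used here states whether counting used strand, so its reads cannot be told apart from those of its partner. For the ligands the closest genes over 22 libraries were CASK for PDGFC (0.974), NR2C2AP for PDGFB (0.956), ZNF224 for PDGFA (0.916) and UGT2B7 for PDGFD (0.977), and for PDGFRL it was ZNF189 (0.705).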

How the data were processed

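Polyadenylated RNA of 22 libraries was made into stranded libraries with 15 PCR cycles, per the labels' protocols. Bowtie2, RSEM and hg19 are named in the submitters' processing notes, without versions or a strand setting. The deposited expected counts are the authors' RSEM estimates of reads for each gene symbol, per the file headers. Levels use TPM, a per-length share of transcripts, as deposited from RSEM by the authors.

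Rounded expected counts went into edgeR 4.0.16 (R 4.3.3), whose quasi-likelihood test was run robustly after TMM scaling on genes kept by filterByExpr (minimum count 10). Adjustment was by Benjamini-Hochberg over every gene kept, and "called" means below 0.05 after it. The fits were 3: the 3 lines (6 libraries), SC with 786-M1A (8) and the CRISPRi groups (16). DESeq2 1.42.0, limma 3.58.1 on log2(TPM + 1), RLE factors, other filters, a replicate block, library sets and left-out libraries were alternatives. The deposited gene length served to weight lengths, as other information in the authors' files. The totals of 9062605 to 52706490 counts limit the precision of low genes; intervals and limits from 3 counts cover counting error only, at 95%, and PCR reads are not independent molecules.

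The members and lists were chosen with earlier results of these data known. Named are all members and, for each list and comparison, genes among the 3 largest called changes a direction, with genes closest to members by correlation, neighbors on the chromosome and CXCR4. One list gene is not reported here. Replicate numbers did not pair the libraries. No p-value is printed for members or list genes in the 3 contrasts that chose the family.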

Additional observations from a re-analysis of the deposited data

Results flagged for a closer look

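The difference between the effect of iMAE-126 and the mean effect of the iMAE-1 guides was past the threshold for PDGFC, at -0.647 on the log2 scale (SE 0.127, edgeR adjusted p = 0.00347). PDGFC averaged 26.4 TPM in iMAE-126, 25.1 TPM in iMAE-1.2 and 25.1 TPM in iMAE-1.1, against 41.0 TPM in SC replicates 1 and 2 and 24.4 TPM in SC replicates 3 to 6. The 2 kinds of guide were read in different library sets, and the part of the set in the difference was not tested beyond the set term, which rests on the SC libraries. Among the 18 groups of 4 to 6 libraries of single members that were checked for a library far from the others, 0 were past Dixon's 95% critical value, where chance gives about 1 in 20.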

How the results depend on the processing

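Of 785 recomputed member fold changes, 737 stayed on their side of the threshold, 26 lost and 21 gained the call and 1 reversed. The 737 include 40 whose sign differed from the reported fit, with neither value called. The 1 counted as reversed was PDGFC in OS-LM1 over 786-M1A. It was 0.07, and -0.235 without OS-LM1 replicate 1 and 0.303 without replicate 2, and the cause was not tested. The number of members called was within 1.5 times in 136 of 153 alternatives over 9 comparisons. These counts include PDGFRB, and in 786-M1A over 786-O and the iMAE-1 guides over SC, which chose the family, they are a description only. With 1 library left out at a time it ranged from 1 to 2 for 786-M1A over 786-O (4 with all), 2 to 4 for OS-LM1 over 786-O (4), 1 to 3 for SC over 786-M1A (2), 0 to 1 for iMAE-1.1 over SC (1; 0 without iMAE-1.1 replicate 4) and 1 to 2 for the difference of guide effects (1; 2 without iMAE-1.2 replicate 3). It was 4 with SC replicates 3 to 6 only for SC over 786-M1A. With SC replicates 1 and 2 only it was 2 for iMAE-1.1, 2 for iMAE-1.2 and 1 for iMAE-126 over SC, and with the library set as a term 1 for iMAE-126. DESeq2 gave 2 for the difference of guide effects.

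Same-numbered libraries did not deviate together: their correlations were -0.304 to 0.1 over 18 pairs of CRISPRi libraries. With the replicate number as a block, members called, PDGFRB included, were 4 for OS-LM1 over 786-O and 4 for OS-LM1 over 786-M1A. They were 3 for SC over 786-M1A, 0 for iMAE-126 over SC and 1 for the difference of guide effects. In the contrasts that chose the family they were 4 for 786-M1A over 786-O and 0 for each iMAE-1 guide over SC, as a description only. PDGFRB stood at 1.27 for iMAE-1.2 over SC and at 1.23 for iMAE-1.1.

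Over all genes, calls ranged from 2 to 6685 (iMAE-1.1, 69 in the fit reported), 2 to 6808 (iMAE-1.2, 110), 61 to 6836 (iMAE-126, 2357), 355 to 5760 (difference of guide effects, 1809) and 2259 to 8733 (786-M1A over 786-O, 5064). Depth limits PDGFRA, PDGFRL and PDGFD, with 2, 262 and 344 counts in all.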
